A study of Homo sapiens with 2 samples.

Results

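The replication-dependent histone genes were examined in HEK-293 cells, a human embryonal kidney line, that had received a miR-204 mimic or a scrambled oligo. The members were all array probes, control spots apart, whose gene name began with HIST1H, HIST2H, HIST3H or HIST4H, which gave 85 probes for 64 gene names out of 41000 probes for 30484 gene names. The names were those of the array design, and 64 of the 64 were matched by accession to a current RefSeq symbol. By class, there were 6 probes for the linker histone H1 and 23, 25, 16 and 15 for the core histones H2A, H2B, H3 and H4.

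Both groups were the same unmodified line in serum-containing medium, transfected at 75 nM and harvested after 48 h, so that they differed in the oligo received. The RNA of both was hybridised together on 2 Agilent 4x44K arrays that form 1 dye swap, with the miR-204 RNA in Cy5 on the first array and in Cy3 on the second. Nothing in the sources used here says that the arrays held separate transfections, so they counted as 1 replicate, no test between the conditions was possible, and values from each array are given side by side. The model is limited to 1 transient transfection of 1 immortal line against 1 scrambled oligo, and the level of miR-204 in these cells was not analysed here. Of the markers looked up for the line, KRT8, KRT18 and VIM were well above background and PAX2 was not in any channel. Of 13 probes for markers of blood, liver, endothelial and fibroblast cells, 11 were in no channel well above background, and 1 probe for COL3A1 was in all 4.

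Histones package DNA into nucleosomes, in which pairs of H2A, H2B, H3 and H4 form the core and H1 binds the linker DNA. The replication-dependent genes lie in clusters, the largest being HIST1, and are transcribed in S phase, when new DNA must be wrapped. Their mRNAs have no introns and, unlike other mRNAs, end in a conserved stem-loop in place of a poly(A) tail, which is bound by SLBP. The primer used to label the RNA is not given in the sources used here. With an oligo-dT primer, the signals would come from whatever minority of the histone RNA carries a poly(A) tail or is primed in another way, so every histone ratio here is that of the labelled RNA, which may be a subset of each gene's transcripts.

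The sequences below are the mature miR-204-5p, shown because it is what was added, and the DNA upstream of the histone genes on which the comparisons turn, shown because neighbouring genes share it. They are RefSeq sequences on GRCh38.p14, read 5′ to 3′ on the strand named. In the miRNA, capitals mark the seed, bases 2 to 8. In the DNA, capitals mark the octamer ATTTGCAT, CCAAT and TATAAA on either strand, each searched separately. For the pairs, the region is all the DNA between the start sites of genes that are transcribed away from each other, the first-named to the left, and for single genes it is the 250 bases before the start.
miR-204-5p (chr9:70810031-70810052, minus strand): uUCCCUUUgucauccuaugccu
HIST1H2AK/HIST1H2BN (chr6:27838376-27838568, plus strand): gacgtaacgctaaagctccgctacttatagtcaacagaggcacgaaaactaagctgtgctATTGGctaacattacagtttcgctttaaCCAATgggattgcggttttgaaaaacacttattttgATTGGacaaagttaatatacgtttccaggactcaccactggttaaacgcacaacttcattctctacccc
HIST1H2BG/HIST1H2AE (chr6:26216689-26216920, plus strand): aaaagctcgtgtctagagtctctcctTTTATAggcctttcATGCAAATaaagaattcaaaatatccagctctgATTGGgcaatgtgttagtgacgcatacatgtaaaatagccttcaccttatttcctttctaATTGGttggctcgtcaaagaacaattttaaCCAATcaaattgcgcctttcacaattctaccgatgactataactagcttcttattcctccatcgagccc
HIST2H2BE/HIST2H2AC (chr1:149886683-149886917, plus strand): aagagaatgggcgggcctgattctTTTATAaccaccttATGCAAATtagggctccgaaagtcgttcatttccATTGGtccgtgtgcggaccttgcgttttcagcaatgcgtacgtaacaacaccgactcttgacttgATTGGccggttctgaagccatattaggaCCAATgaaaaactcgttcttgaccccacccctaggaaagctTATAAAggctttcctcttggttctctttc
HIST1H4E (chr6:26204360-26204609, plus strand): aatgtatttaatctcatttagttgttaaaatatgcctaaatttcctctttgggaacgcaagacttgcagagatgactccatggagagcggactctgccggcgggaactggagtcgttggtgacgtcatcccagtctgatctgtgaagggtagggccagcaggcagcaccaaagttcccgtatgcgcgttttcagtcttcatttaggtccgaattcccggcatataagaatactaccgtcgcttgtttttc
HIST1H3C (chr6:26045134-26045383, plus strand): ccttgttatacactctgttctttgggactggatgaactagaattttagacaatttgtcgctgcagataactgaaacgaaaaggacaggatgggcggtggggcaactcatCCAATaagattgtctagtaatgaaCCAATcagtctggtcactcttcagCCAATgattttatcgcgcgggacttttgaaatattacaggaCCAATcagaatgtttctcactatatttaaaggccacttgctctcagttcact
HIST1H1E (chr6:26156079-26156328, plus strand): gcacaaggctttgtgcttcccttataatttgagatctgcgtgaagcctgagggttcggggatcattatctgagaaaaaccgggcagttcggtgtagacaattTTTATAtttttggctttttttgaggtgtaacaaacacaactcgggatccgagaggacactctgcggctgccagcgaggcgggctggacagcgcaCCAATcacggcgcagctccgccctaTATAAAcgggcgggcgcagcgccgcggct

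The promoters differed by class. In windows from 250 bases before to 50 after the start, which were given for 59 of the histone genes, the octamer was found in 11 of 14 H2A and 13 of 17 H2B genes but in 1 of 10 H3, 0 of 6 H1 and 0 of 12 H4 genes, and in 1.77% of all 35116 promoters. CCAAT was found in 6 of 6 H1, 14 of 14 H2A, 17 of 17 H2B and 10 of 10 H3 genes, in 3 of 12 H4 genes and in 34.6% of all promoters. TATAAA was found in 3 of 6 H1, 10 of 14 H2A, 12 of 17 H2B, 8 of 10 H3 and 7 of 12 H4 genes, against 11.5% of all promoters. A match is a run of letters and not a measured binding site.

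Most histone genes were detected. A probe was counted when the software called it well above background in control RNA on each array, or in miR-204 RNA on each, which 69 of the 85 probes did, for 57 of the 64 gene names. Of all probes, 25270 of 41000 were counted. None of the histone spots was saturated or carried an outlier flag. Of the 85 probes, 66 were above background in all 4 channels, 4 in some and 15 in none.

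**Figure D1:**
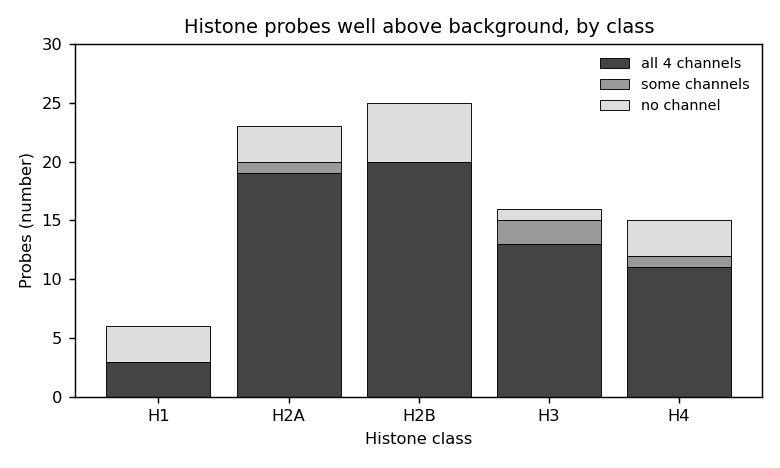
Number of histone probes of each class that were well above background in all 4 channels (2 RNAs on 2 arrays), in some of them or in none. The counts in all 4 channels were 3 of 6 for H1, 19 of 23 for H2A, 20 of 25 for H2B, 13 of 16 for H3 and 11 of 15 for H4.

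The 7 gene names without a counted probe were HIST1H1A, HIST1H1B, HIST1H1T, HIST1H2AA, HIST1H2BA, HIST1H4G and HIST4H4. HIST1H1T, HIST1H2AA and HIST1H2BA are known from the testis. HIST3H3, also known from the testis, was however counted, and its probe had the highest signals of the H3 class. No histone probe was above background in both channels of 1 RNA and in neither channel of the other. The second probe of HIST1H2AC was above background in 2 channels, 1 of each RNA, and was not counted. HIST1H3I, HIST1H4A and a probe of HIST1H3D, in 3 channels each, fell short in the miR-204 channel of the dye swap. They were thus counted through the control RNA only, which favours a lower ratio. For the remaining probes in no channel, the file still lists a signal, but only a bound on the level is known, so their ratios are not described.

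Histone signals were lower in the miR-204 RNA by small amounts that depended on the class. The ratios are log2 of miR-204 over control after quantile normalisation of the 4 channels, so that 0 is no difference and −1 is a 2-fold lower signal. Over the 69 counted probes the median was −0.15 on the first array, −0.18 on the dye-swap array and −0.18 in the mean of both, against 0.016 on the first array and 0 to 2 decimals in the mean for all counted probes. On both arrays, 46 of the 69 histone probes, 66.7%, were lower in the miR-204 RNA, against 23.3% of all 25270 counted probes. Another 3 probes, 4.35%, were higher on both, against 24.2% of all, and 20 had opposite signs. No histone probe passed 2-fold in the mean with the same sign on both arrays, in either direction, against 0.518% of all counted probes lower and 0.119% higher. At 1.5-fold, 4 histone probes were lower and 0 higher, against 2.6% and 1.27% of all.

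The medians of the mean ratio, from lowest to highest, were those of H1, which rests on 3 probes, H2A, H4, H2B and H3. On the first array and the dye-swap array, the median log2 ratios were −0.62 and −0.34 for H1, −0.36 and −0.33 for H2A, −0.37 and −0.16 for H4, −0.09 and −0.16 for H2B, and 0.14 and −0.11 for H3. H1 and H2A could not be ordered, since they lay together on the dye-swap array, and with no filter on signal the H1 median of −0.17 stood above that of H2A, −0.31. H2A and H4 could not be ordered either, since their medians lay together on the first array, nor could H4 and H2B, which lay together on the dye-swap array. H3 alone of the 5 classes had medians of opposite sign on the 2 arrays. No test of these differences between classes was made.

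**Figure D2:**
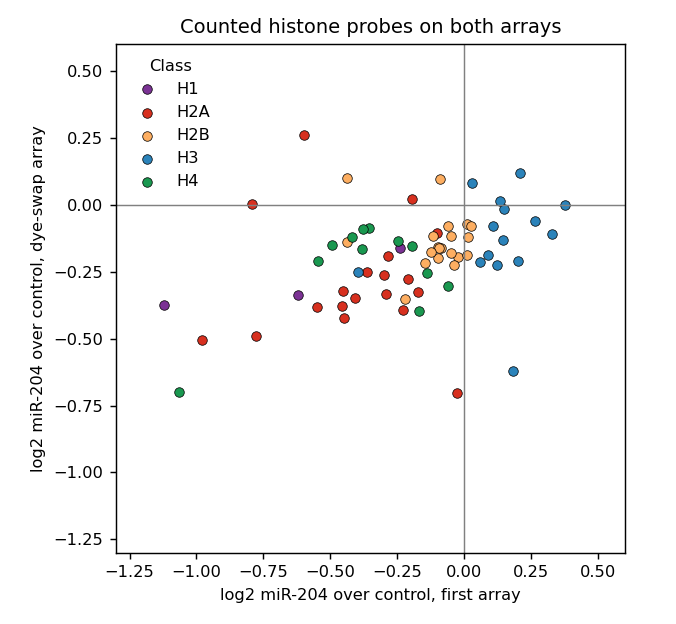
For each of the 69 counted histone probes, miR-204 over control on a log2 scale on the first array (x axis) and the dye-swap array (y axis), coloured by class. The H1 and H4 probes all lie at the lower left, where both arrays are below 0, and 11 of the 15 H3 probes lie where the arrays have opposite signs.

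Across the 69 histone probes, Pearson's r between the arrays was 0.36 and Spearman's rho 0.37. Over all 25270 counted probes, r was −0.03 and rho −0.05. These are correlations across probes that share a pair of arrays and, among the histones, similar sequences, and they are descriptions without a p. The difference between the arrays divided by 2 had an SD of 0.15 over the histone probes and 0.28 over all counted probes. It holds any effect of the dye together with scatter between the arrays, which cannot be told apart. The processed signals of the counted histone probes carried an error from the scanning software of 10.0% in the median, the highest being 29.0%. Histone genes of a class are near-identical over much of their coding sequence. Probe sequences were not used here, so signal that a probe takes up from other members of its class cannot be told apart from its own, and the probes of a class are not independent readings.

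The linker histones H1 had 3 counted probes, and all 3 were lower on both arrays. HIST1H1E had processed signals of 3242 in control and 1501 in miR-204 RNA on the first array, and of 2385 and 1820 on the dye-swap array. Its log2 ratios were thus −1.12 and −0.38, with a mean of −0.75 ± 0.53 (SD, n = 2 arrays), and the value on the first array was the larger by far. The probe lies at chr6:26264907-26264966 on hg18, the build of the array files. HIST1H1D read 2754 and 1795 on the first array and 2306 and 1809 on the dye-swap array, with log2 ratios of −0.62 and −0.34. HIST1H1C read 13381 and 11183, then 9276 and 8164, with log2 ratios of −0.24 and −0.16. For these 3 genes the control signal was above the miR-204 signal on each array, but the control on the dye-swap array was itself below that on the first array, as it was for the median probe of every class.

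The H2A genes were lower as a group. Of 19 counted probes, 16 were lower on both arrays, 0 were higher on both, and all 19 means were below 0, from −0.74 to −0.09. HIST1H2AH was the lowest, with signals of 2828 in control and 1447 in miR-204 RNA on the first array and 2497 and 1751 on the dye-swap array. Its log2 ratios were −0.98 and −0.50, a mean of −0.74 ± 0.34 (SD, n = 2 arrays), for a probe at chr6:27223225-27223284 (hg18). HIST1H2AK read 3263 and 1885 on the first array and 2839 and 2011 on the dye-swap array, with log2 ratios of −0.78 and −0.49 and a mean of −0.63 ± 0.20 (SD, n = 2 arrays), at chr6:27913708-27913767 (hg18). For both genes, each miR-204 signal was below each control signal, across arrays as well as within them. These signals were not scaled between the arrays, of which the dye swap was the dimmer.

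HIST1H2AE, the next lowest, read 653 and 441 on the first array and 484 and 371 on the dye-swap array, with log2 ratios of −0.55 and −0.38. Both probes of HIST1H2AJ gave close values, −0.45 and −0.42 for one and −0.46 and −0.38 for the other. At the other end were HIST2H2AB with −0.19 and 0.02 for a dim probe, HIST2H2AC with −0.10 and −0.11, and HIST1H2AL with −0.60 and 0.26, whose signals of 63, 41, 45 and 54 were among the lowest counted. HIST1H2AC, also dim at 71 and 70 on the first array and 55 and 34 on the dye-swap array, had ratios of −0.03 and −0.70. After loess normalisation the means of these dim probes were closer to 0, at −0.10 for HIST1H2AC, −0.010 for HIST2H2AB and 0.0039 for HIST1H2AL. Of the 3 H2A probes with opposite signs, or a value at 0 on 1 array, 2 were these dim probes of HIST2H2AB and HIST1H2AL, and the third was a probe of HIST2H2AA3 with −0.79 and 0.0020.

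The H2B genes differed least among themselves. All 20 counted probes had means between −0.29 and 0.0034, with an SD of 0.075 over probes against 0.16 for H2A, 0.14 for H3 and 0.19 for H4. On both arrays 14 were lower and 0 higher. The lowest were a probe of HIST1H2BD with log2 ratios of −0.44 and −0.14, HIST1H2BJ with −0.22 and −0.35, and HIST2H2BE with −0.15 and −0.22 for its lower probe. At the top were HIST1H2BK with −0.09 and 0.10, HIST1H2BI with 0.03 and −0.08 and HIST1H2BG with 0.01 and −0.07. HIST1H2BG had signals of 269 in control and 271 in miR-204 RNA on the first array and 249 and 237 on the dye-swap array, so that its RNAs overlapped.

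The H3 genes had ratios near 0. Of 15 counted probes 1 was lower on both arrays, 3 were higher on both and 11 had opposite signs, always above 0 on the first array and below 0 on the dye-swap array. The miR-204 RNA was in Cy5 first and in Cy3 after the swap. After normalisation, the Cy5 channel was thus the brighter for these 11 on both arrays. In the processed signals HIST1H3J did not follow on the dye-swap array, at 42.7 in control (Cy5) and 42.8 in miR-204 RNA (Cy3). HIST1H3C showed a brighter Cy5 channel on both arrays, with 5998 in control and 7108 in miR-204 RNA on the first array. On the dye-swap array it read 5247 and 5047, and its log2 ratios were 0.26 and −0.06. HIST3H3 was higher on both arrays, at 23771 and 26200 and then 14824 and 16214, with log2 ratios of 0.21 and 0.12. Any signal that its probe took up from other H3 genes cannot be told apart. The other 2 probes higher on both were of HIST1H3H, with 0.03 and 0.08, and of HIST2H3A, with 0.13 and 0.013.

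The highest H3 mean was that of HIST1H3J, with log2 ratios of 0.38 and −0.00025 from signals of 27, 35, 43 and 43, which are near background. The second probe of HIST2H3A had 0.33 and −0.11. The lowest with a signal in all 4 channels were HIST1H3B with 0.06 and −0.21, HIST1H3D with 0.12 and −0.22 and HIST1H3E with 0.09 and −0.19. The only H3 probe lower on both arrays was a second probe of HIST1H3D, above background in 3 channels, with −0.40 and −0.25 and a mean of −0.13 after loess normalisation in place of −0.32. The median mean of the class was 0.013, and its sign was not stable, since it was −0.0073 after loess normalisation and −0.018 in the authors' series table.

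The H4 genes, which all encode a near-identical protein, were lower. All 12 counted probes were lower on both arrays, with means from −0.88 to −0.17. Among them, the dim probe of HIST1H4A was counted through the control RNA only. HIST1H4E was the lowest of all histone probes, with signals of 1064 in control and 506 in miR-204 RNA on the first array and 901 and 553 on the dye-swap array. Its log2 ratios were −1.07 and −0.70, a mean of −0.88 ± 0.26 (SD, n = 2 arrays), and 0.780% of all counted probes had a mean as low or lower. The probe lies at chr6:26313151-26313210 (hg18). Both miR-204 signals were below both control signals, with no scaling between the arrays.

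HIST1H4H followed at a mean of −0.38, from −0.55 and −0.21, which was −0.24 after loess normalisation, and HIST1H4B with −0.49 and −0.15. The remaining H4 genes had means close together, up to HIST1H4K with −0.25 and −0.14, HIST1H4F with −0.06 and −0.30 and HIST1H4J with −0.19 and −0.15. In the upstream DNA printed above, HIST1H4E held none of the 3 motifs, HIST1H3C held CCAAT alone, and HIST1H1E held CCAAT and TATAAA.

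**Figure D3:**
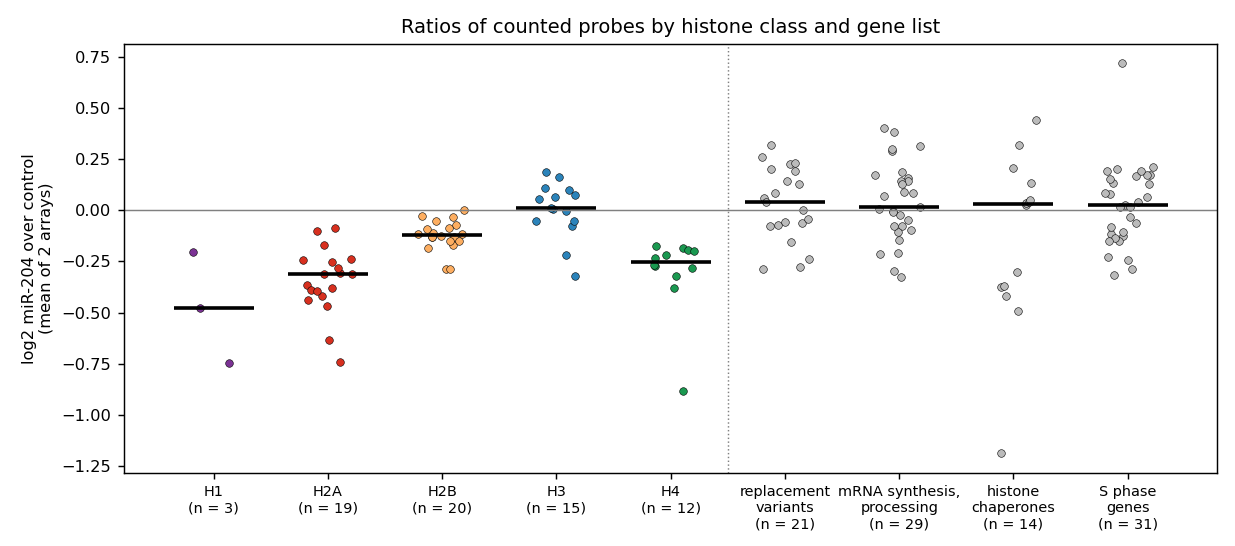
Mean log2 ratio of miR-204 over control over the 2 arrays for each counted probe (points, spread sideways at random for display) of the histone classes and of 4 gene lists, with the median of each as a black bar. The medians were −0.48, −0.31, −0.12, 0.013 and −0.25 for H1, H2A, H2B, H3 and H4, and between 0.014 and 0.04 for the 4 lists.

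The medians by cluster lay closer together than those by class. The median mean was −0.19 over 54 counted probes of the HIST1 cluster on chromosome 6, −0.18 over 11 of HIST2 and −0.15 over 4 of HIST3, both on chromosome 1. Inside and outside HIST1, the medians were −0.38 and −0.24 for H2A, −0.11 and −0.16 for H2B, 0.00096 and 0.11 for H3, and −0.27 and −0.20 for H4, the last outside value being 1 probe of HIST2H4A.

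Many H2A and H2B genes stand head to head, so that both start from the same short stretch of DNA. Among the 59 histone genes with a promoter window, 10 such pairs were found, with 193 to 247 bases between their starts. Both genes were counted in 9 of them. The stretch between the starts held the octamer in 7, CCAAT in 9 and TATAAA in 6 of these 9. In 8 of the 9 the H2A gene had the lower mean ratio, with a median difference of −0.20 in log2 (H2A minus H2B) and a range from −0.50 to 0.0018. With either array alone the count was also 8, and in 7 pairs it was lower on both. HIST1H2AH and HIST1H2BK, whose probes lie near each other on opposite strands of chromosome 6, were not among the 10 found. Their mean ratios of −0.74 and 0.0034 lay further apart than those of any counted pair.

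Of the counted pairs, the widest gap was between HIST1H2AK, at −0.78 and −0.49, and HIST1H2BN, at −0.04 and −0.23. They share 193 bases without an octamer. The signals of HIST1H2BN were 1518 in control and 1484 in miR-204 RNA on the first array and 1302 and 1118 on the dye-swap array. HIST1H2AE and HIST1H2BG, with 1 octamer between them, came next at a difference of −0.44. HIST1H2AC and HIST1H2BC differed by −0.0044 on the first array and by −0.51 on the dye-swap array, and by 0.02 in the mean after loess normalisation. The counted HIST1H2AC probe is dim and starts 14419 bases from its other probe on hg18, which was not counted. Whether the counted probe reads RNA from the shared start was not tested. HIST1H2AG and HIST1H2BJ differed by −0.23 and 0.03. HIST2H2AC and HIST2H2BE, each a mean of 2 probes, were the exception in the mean, differing by 0.14 and −0.13. These comparisons are between probes of different sequence, and no test was made.

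**Figure D4:**
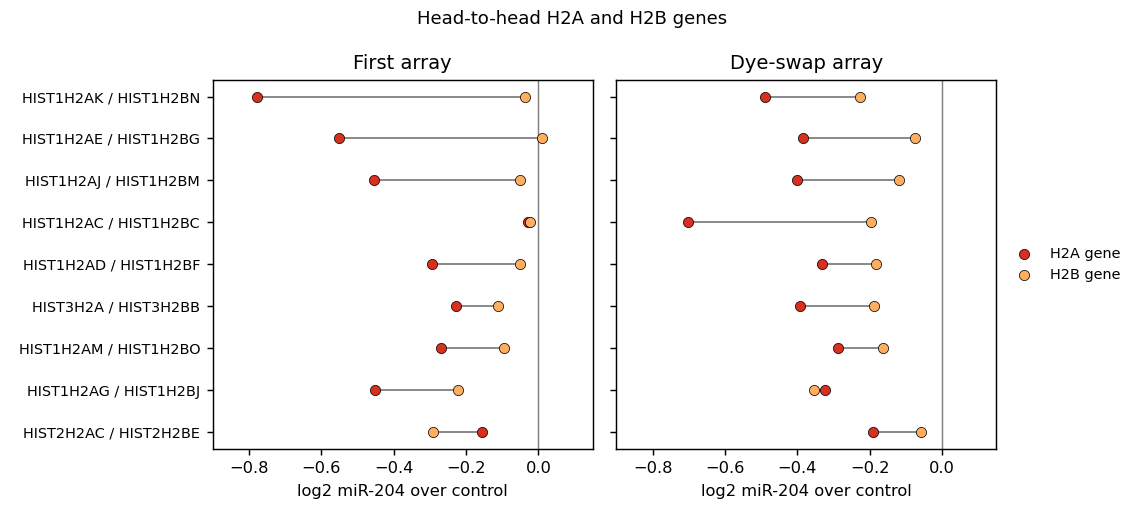
Log2 ratio of miR-204 over control of the H2A and H2B gene of each counted head-to-head pair, on the first array (left) and the dye-swap array (right). Values are averaged over the counted probes of a gene. Lines join the genes of a pair, which are sorted by the difference in the mean of both arrays, and the H2A gene is to the left in 8 of 9 pairs in each panel.

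Counted probes of the same gene had mean ratios within 0.27 of each other, which was not set against the spread between genes. There were 19 genes with several probes, and for the 12 with at least 2 counted the range of the means was 0.070 in the median and at most 0.27, for HIST1H3D. The range was 0.018 for HIST1H2AJ, 0.013 for HIST2H2BE, 0.036 for HIST2H3A, 0.053 for HIST1H2BE, 0.057 for HIST1H2AM, 0.084 for HIST1H3B and 0.00022 for HIST3H2BB. It was 0.14 for HIST2H2AC, 0.16 for HIST2H2AA3, 0.17 for HIST1H2BD and 0.20 for HIST2H2AB. In 8 genes some probe was above background in no channel. Among these, the probes of HIST1H2AG, HIST1H2AK, HIST1H2BJ, HIST1H2BN and HIST1H3G lay 1133, 2402, 7030, 13849 and 1622 bases apart on hg18, 1 of the probes being in no channel above background. The counted probes of HIST1H2AJ, HIST1H2AM, HIST1H2BE and HIST2H2AA3 lay 207, 70, 251 and 477 bases apart. Those of HIST1H3B, HIST2H2AC, HIST2H2AB and HIST1H3D started 13, 25, 32 and 40 bases apart and so overlapped. For HIST1H2BD and HIST3H2BB, the counted probes were listed on opposite strands. Which part of the transcript each probe reads was not analysed here.

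The replication-independent variants, whose mRNAs are as a rule, though not in every case, polyadenylated and not tied to S phase, were looked up for comparison. Of 17 names looked up 12 were on the array, and over 21 counted probes the median was 0.20 on the first array, −0.10 on the dye-swap array and 0.04 in the mean, with 2 lower on both arrays, 6 higher on both and 13 of opposite sign. The H3 class above likewise had medians of opposite sign, and no test of a difference was made. The 8 probes of H3F3A and H3F3B, which encode H3.3, had medians of 0.21 and 0.028 on the arrays and 0.17 in the mean. On both arrays 0 were lower and 5 higher, against 23.3% and 24.2% of all counted probes. The probes of H3F3A differed. Its brightest, with control signals of 77380 to 104319 on the first array, had means from −0.06 to −0.04 and opposite signs on the arrays. Its other probes had means of 0.23 and 0.20. H2A variants had a median of 0.021 over 10 probes, from H2AFV at 0.08 and −0.65 for its lower probe to H2AFY2 at 0.53 and 0.11. H2AFY2 is a macroH2A gene. H2AFY, the other macroH2A gene, had higher signals and log2 ratios of 0.04 and −0.19. The linker variants H1F0 and H1FX had 0.60 and −0.15, and −0.81 and 0.33.

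Genes for histone mRNA synthesis and 3′ processing had a median of 0.014 over 29 counted probes, for 19 of 21 names, with 6 lower and 8 higher on both arrays. SLBP had log2 ratios of 0.07 and −0.04. The 2 probes of NPAT, the coactivator of histone transcription, went different ways, at 0.66 and 0.14, the highest mean of the list at 0.40 but 0.18 after loess normalisation, and at −0.16 and −0.04. CASP8AP2, which works with NPAT, had 0.49 and −0.18, and the lowest was a probe of LSM11, part of the U7 particle, at −0.10 and −0.56, whose mean of −0.33 was −0.05 after loess normalisation.

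Histone chaperones, 11 of 12 names, had a median of 0.030 over 14 counted probes, with 3 lower and 5 higher on both arrays. HIRA, which deposits H3.3, had the lowest mean from −2.59 and 0.21, so that the first array decided it. The highest was a dim probe of ASF1A at 0.62 and 0.26, above background in 3 channels, whose mean of 0.44 became 0.13 after loess normalisation. The other ASF1A probe, with a control signal of 1234 on the first array, had 0.11 and −0.07. S phase genes, 25 of 25 names, had a median of 0.028 over 31 counted probes, with 3 lower and 9 higher on both arrays. Their range ran from LIG1, a DNA ligase, at −0.65 and 0.02 to CCNE2, cyclin E2, at 0.75 and 0.68. The CCNE2 probe was dim, with signals of 31 in control and 52 in miR-204 RNA on the first array and 14 and 21 on the dye-swap array, in 3 channels above background, and its mean of 0.72 became 0.19 after loess normalisation. The share of cells in S phase was not measured here, and lower RNA in each cell cannot be told apart from fewer cells making it.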

How the data were processed

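Labelled RNA of HEK-293 cells with a miR-204 mimic and with scrambled oligo was hybridised together on 2 Agilent 4x44K arrays, dyes swapped. The authors extracted spot intensities with Feature Extraction 9.5.3.1, and the deposited intensity values used here are its processed signals, background-subtracted and dye-normalised, with probe positions on hg18. The deposited log10 ratios of Cy5 over Cy3 and the log2 ratios of the authors' series table, quantile normalised by them, served as alternatives. The mean and background intensities deposited by the authors served for another alternative, normexp with an offset of 50 and loess.

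The direction of each ratio came from the dye labels. The scale and direction of the series table were found by setting it against the per-array ratios. Of the 43376 spots for 41000 probes per array, those of the 128 probes flagged as outliers by the software were dropped. The 4 channels were then quantile normalised on log2, and after that the spots of a probe were averaged. Intensities have no sequencing depth, and the number of arrays limits the precision. The methods' t-test and limma 3.58.1 (R 4.3.3) treat the arrays as replicates, so their p-values leave out the spread between transfections. They were run as alternatives. The fold rule, the t-test and limma were tested on simulated data. Summaries used Python 3.11.15, pandas 2.3.3 and numpy 2.4.6. Sequences were RefSeq's on GRCh38.p14, and head-to-head genes had starts under 600 bases apart. Genes named are those past a fold, the 3 lowest and 3 highest per class with a probe in all 4 channels, genes with several probes, the ends of each list, and SLBP, NPAT and CASP8AP2. HIST1H2AC, HIST1H2AJ, HIST1H3C, the pair members and some others were named after their values were seen. The remaining marker probe is not reported here. The members and lists were chosen with earlier results of these data known.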

Additional observations from a re-analysis of the deposited data

How the results depend on the processing

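The count of histone probes lower on both arrays was a summary chosen after seeing the data. Over the alternatives to normalisation, deposited values, filter and flags that used both arrays, it was 37 to 50 against 46. The share of all probes lower on both arrays was 19.6% to 26.1% under these alternatives. The counts are of 69 histone probes, except 49 of 85 with no filter and 44 of 66 in all 4 channels. On 1 array alone 51 to 61 were lower, against 48.2% of all counted probes without the dye-swap array and 50.9% without the first. The median log2 ratio of the histone probes was −0.14 with normexp and loess and −0.15 with no filter on signal, and −0.18 to −0.15 with 1 array left out, the latter on the first array alone. The H2A median was −0.34 with quantile normalisation of the ratios and −0.36 to −0.33 with 1 array left out. The H1 median was −0.17 with no filter, where undetected probes enter. The H3 median was 0.14 on the first array alone and −0.11 on the dye-swap array alone, and the medians of the other 4 classes stayed below 0 under the 11 alternatives run.

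The count lower by 2-fold was 4 at a threshold of 1.5-fold, against 2.6% of all counted probes. It was 0 to 2 with 1 array left out, 2 being that of the first array alone, where HIST1H1E and HIST1H4E passed. The share of all counted probes past 2-fold on 1 array alone was not computed. No histone probe was higher by 2-fold under the 19 alternatives run. Without a fold threshold, the methods' t-test at an unadjusted p of 0.05 called 8 histone probes lower and 0 higher, against 6.42% of all counted probes in either direction, and limma 4 and 0, against 4.72%. After Benjamini-Hochberg adjustment both called 0. These p-values set the ratio against the scatter between 2 arrays of 1 replicate and say nothing of the spread between transfections. No paired analysis was possible because each array already holds both RNAs and the dye swap counts as 1 replicate. Signals near background limit the ratios of dim probes such as HIST1H3J.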
